A study of Homo sapiens with 6 samples.

Results

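Mitochondria carry their own protein folding and degradation machinery, and the genes described here encode its core. They are 10 nuclear genes chosen by name for their role in the mitochondrial unfolded protein response (HSPD1, HSPE1, HSPA9, TRAP1, LONP1, CLPP, CLPX, YME1L1, AFG3L2 and HTRA2), and all 10 were among the 11048 gene symbols listed for every library. Earlier results of these data were known when they were chosen. They were measured by RNA sequencing in MM1.S, a human multiple myeloma cell line that grows from malignant plasma cells. Cells were kept for 6 h with DMSO as the vehicle control, with 3 µM CCF642 or with 3 µM CCF642-34, and 2 libraries were made per group. CCF642 is an inhibitor of the endoplasmic reticulum enzyme protein disulfide isomerase A1 (PDIA1), and CCF642-34 is an analogue of it that the study developed for better solubility and selectivity. All 6 libraries came from the same line, with no genetic change given for any of them. No source used here says whether replicates were separate cultures, so the p-values measure the spread between these libraries only.

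Proteins enter the mitochondrial matrix unfolded and are pulled in by the HSP70 chaperone mortalin, the product of HSPA9. Many then fold inside the HSP60 and HSP10 chamber, encoded by HSPD1 and HSPE1, while damaged proteins are removed by the matrix proteases LONP1 and CLPXP and by AAA proteases of the inner membrane. When this system is overloaded, mammalian cells are known to raise its genes through the integrated stress response factors ATF4, CHOP and ATF5 and through the heat shock factor HSF1.

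Totals recovered from the deposited values lay between 20567313 and 28459677 reads per library, and the members held from 326 reads (HSPE1) to 59518 reads (HSPD1) in a library. All 8 plasma cell markers checked were listed, and their summed level was 4916 to 5005 CPM (the gene's reads scaled to the library's total) with DMSO, 4392 to 4428 CPM with CCF642 and 4722 to 4791 CPM with CCF642-34. Of the markers of other cells, MS4A1, CD14 and LYZ were not listed, and the 4 that were listed summed to 7.48 to 7.52, 16.3 to 17.2 and 11.9 to 12.1 CPM in these groups. These sums moved with the treatments, and their part in the results was not tested. Within them, SDC1, a plasma cell surface proteoglycan, had group means of 860.2 (DMSO), 245 (CCF642) and 371 CPM (CCF642-34), whereas IRF4, a transcription factor of plasma cells, had 669.5 (DMSO), 1137 (CCF642) and 1356 CPM (CCF642-34). COL1A1, a collagen gene, had means of 1.29, 9.76 and 3.13 CPM, and HBB, a globin gene, had 2.80, 3.15 and 4.62 CPM in the same order. In a bulk culture, fewer cells of a kind and less RNA per cell cannot be told apart.

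Because HSPD1 and HSPE1 lie head to head and are known to share a promoter, the windows around the transcript starts are shown before the values. RefSeq (GRCh38.p14) held windows of 250 bases before to 50 bases after a start for 8 of the 10 genes, 11 windows in all, and CLPP and YME1L1 were not matched. The submitters' processing notes name the build hg19, so these positions are not those of the authors' alignment. Capitals mark matches to the motifs searched on both strands, which were a heat shock element (GAANNTTC), an ATF4-type site (TGATGNAA), an antioxidant element (TGACNNNGC), an E-box (CACGTG) and a CCAAT box (CCAAT). The 4 windows printed are the HSPE1 window, the window of the second HSPD1 start and those of HSPA9 and LONP1, chosen because these genes rose most with CCF642.
HSPE1, chr2:197500129-197500428, + strand: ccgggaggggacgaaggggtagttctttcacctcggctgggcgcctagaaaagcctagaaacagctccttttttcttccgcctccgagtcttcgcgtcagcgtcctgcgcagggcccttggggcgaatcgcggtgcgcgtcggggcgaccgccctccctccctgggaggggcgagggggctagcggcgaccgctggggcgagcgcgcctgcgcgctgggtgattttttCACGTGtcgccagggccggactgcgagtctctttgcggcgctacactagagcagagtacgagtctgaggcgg
HSPD1 second start, chr2:197499791-197500090, - strand: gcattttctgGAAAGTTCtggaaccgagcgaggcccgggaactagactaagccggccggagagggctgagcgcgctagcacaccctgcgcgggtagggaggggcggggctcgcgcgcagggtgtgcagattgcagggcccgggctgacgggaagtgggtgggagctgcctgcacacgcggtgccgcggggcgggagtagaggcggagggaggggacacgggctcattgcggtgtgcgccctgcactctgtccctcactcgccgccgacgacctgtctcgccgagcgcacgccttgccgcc
HSPA9, chr5:138575352-138575651, - strand: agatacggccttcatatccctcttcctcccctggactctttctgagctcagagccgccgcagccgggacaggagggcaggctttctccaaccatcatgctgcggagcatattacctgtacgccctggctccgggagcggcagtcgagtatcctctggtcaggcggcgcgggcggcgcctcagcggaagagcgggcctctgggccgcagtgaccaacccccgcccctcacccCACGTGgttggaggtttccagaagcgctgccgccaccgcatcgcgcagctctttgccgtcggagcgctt
LONP1, chr19:5720097-5720396, - strand: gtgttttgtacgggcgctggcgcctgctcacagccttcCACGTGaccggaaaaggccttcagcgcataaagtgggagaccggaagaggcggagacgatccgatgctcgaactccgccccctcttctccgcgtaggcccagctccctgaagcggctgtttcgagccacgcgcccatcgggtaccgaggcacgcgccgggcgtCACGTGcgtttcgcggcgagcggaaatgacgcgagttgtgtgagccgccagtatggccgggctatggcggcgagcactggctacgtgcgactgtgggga

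The first HSPD1 start and the HSPE1 start were 105 bases apart on opposite strands, and their windows shared 204 bases. A single E-box lay in that shared stretch, 88 bases before the HSPD1 start and 22 bases before the HSPE1 start as each strand reads. HSPA9 held an E-box 19 bases before its start, and LONP1 held 2, at 212 and 49 bases before its first start. An E-box was therefore present in windows of 4 members, and in 4 of the 11 member windows, where HSPD1 and HSPE1 count the same site. It was present in 7.26% of the 35116 windows in the table and 9.39% of the 13061 windows of genes listed here. The heat shock element was found in 1 member window, that of the second HSPD1 start, and in 6.77% of all windows. It lay 194 bases downstream of the first HSPD1 start and 306 bases upstream of the HSPE1 start, outside the HSPE1 window.

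The antioxidant element matched once, in the TRAP1 window (13.3% of all windows), and the CCAAT box once, in the CLPX window (34.6%). The ATF4-type site was in none of the 11 windows and in 3.62% of all windows. These are matches of letters in short windows and not measured binding sites.

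**Figure D1:**
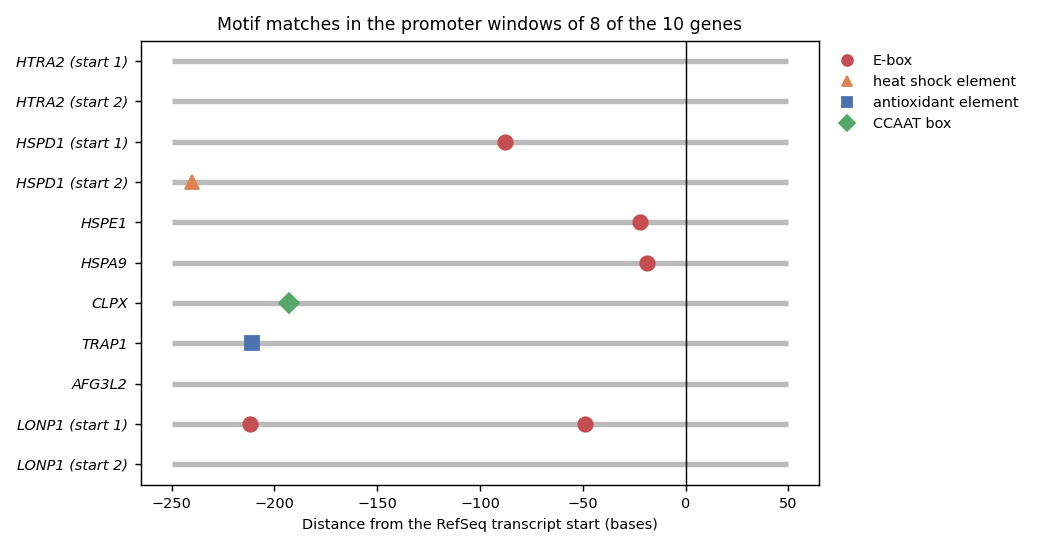
Positions of motif matches in the 11 RefSeq promoter windows of 8 genes, as the distance of the first motif base from the transcript start in bases; grey bars are the windows and symbols the motifs. E-box matches lie in windows of HSPD1, HSPE1, HSPA9 and LONP1, and the heat shock element lies 240 bases before the second HSPD1 start.

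Compared with DMSO, the genes of the main matrix chaperones and of the Lon protease were higher with CCF642, and libraries with it had less TRAP1 and AFG3L2 mRNA, while the CLPXP genes had no detected change. Of the 10 members, 5 were higher (HSPD1, HSPE1, HSPA9, LONP1 and YME1L1) and 2 were lower at a Benjamini-Hochberg adjusted p under 0.05 in limma. This stands beside 63.1% of all listed genes called in this comparison, 31.8% higher and 31.3% lower, so the number of calls is close to that of genes at large. Only HSPA9 reached a 2-fold change, the criterion of the study, which 6.49% of all genes met. The median log2 fold change of the members was 0.21, beside −0.0066 over all genes. With CCF642-34, 5 members were higher (HSPD1, HSPA9, LONP1, YME1L1 and CLPP) and TRAP1 and AFG3L2 were lower, where 57.6% of all genes were called, 29.7% higher and 27.9% lower. None of the members met the 2-fold criterion as fitted here, with HSPA9 at its edge (log2 fold change 0.9997). That criterion was met by 3.87% of all genes, and the median of the members was 0.073 beside 0.0067 over all genes. The comparisons share the DMSO libraries.

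The division into higher and lower calls depended on how libraries were scaled. Fold changes here use the trimmed mean of M-values (TMM) scaling, after which log2(CPM + 1) was tested, and this scale understates changes of genes with low values. With library size alone, 5 members were higher and 4 lower with CCF642, and 4 higher and 3 lower with CCF642-34. That scaling moved the share of higher genes among all calls from 50.4% to 34.8% with CCF642 and from 51.6% to 38.6% with CCF642-34. It shifted the median of all genes to −0.131 and −0.0781, and that of the members to 0.0822 with CCF642 and, below 0, to −0.0147 with CCF642-34.

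**Figure D2:**
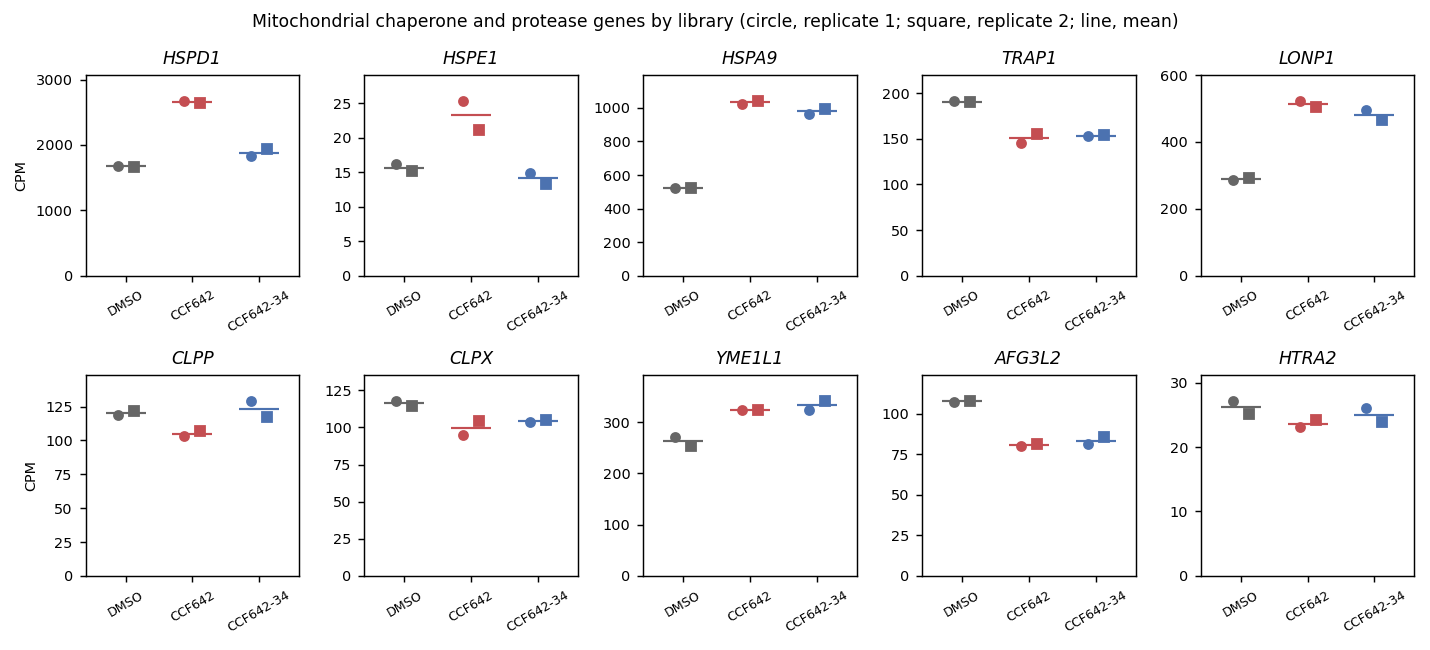
Deposited CPM of each of the 10 genes in the 6 libraries on linear axes that start at 0; circles are replicate 1, squares replicate 2, and lines group means. HSPA9 and LONP1 are high with both compounds, whereas HSPD1 and HSPE1 are high mainly with CCF642.

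HSPA9 encodes mortalin, the matrix HSP70 that also drives protein import. It was at 522 and 519.9 CPM in the DMSO libraries, 1024 and 1043 CPM with CCF642, and 964 and 995 CPM with CCF642-34. All 4 treated libraries lay far above both DMSO libraries, and the CCF642 libraries lay above those of CCF642-34. Relative to DMSO, the log2 fold change was 1.12 (SE 0.036, limma adjusted p = 1.76e-30) with CCF642 and 0.9997 (SE 0.036, limma adjusted p = 3.19e-28) with CCF642-34. The latter falls just short of the 2-fold criterion on the log2(CPM + 1) scale. Over the 14 alternative fits it ran from 0.91 to 1.02, so HSPA9 lies at the edge of that criterion.

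LONP1, the ATP-dependent Lon protease that degrades oxidized matrix proteins, followed the same order of groups. Its values were 287 and 294 CPM with DMSO, 523 and 506 CPM with CCF642, and 495 and 466 CPM with CCF642-34. The groups did not overlap. The fitted log2 change was 0.96 (SE 0.040, limma adjusted p = 1.03e-25) with CCF642 and 0.81 (SE 0.040, limma adjusted p = 1.10e-22) with CCF642-34.

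HSPD1, which encodes HSP60, was the most abundant member and separated the compounds. It was at 1682 and 1658 CPM with DMSO, 2675 and 2634 CPM with CCF642, and 1834 and 1932 CPM with CCF642-34. The CCF642-34 libraries were only slightly above DMSO and well below CCF642. On the log2 scale the change was 0.80 (SE 0.034, limma adjusted p = 1.53e-25) with CCF642 and 0.26 (SE 0.034, limma adjusted p = 6.10e-09) with CCF642-34.

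HSPE1, the gene of the HSP10 lid of the same chamber, had the same order of CCF642 over the other groups. It was at 16.1 and 15.2 CPM with DMSO, 25.4 and 21.2 CPM with CCF642, and 14.9 and 13.3 CPM with CCF642-34. After scaling, the DMSO and CCF642-34 libraries overlapped, and both CCF642 libraries lay above them. HSPE1 changed by a log2 fold of 0.66 (SE 0.11, limma adjusted p = 5.31e-07) with CCF642 and −0.057 (95% interval −0.27 to 0.16, limma adjusted p = 0.672) with CCF642-34. Its level is uncertain, because 18.6% of its exonic bases overlap the read-through gene HSPE1-MOB4 on the same strand in GENCODE release 29, and further bases overlap HSPD1 on the other strand. That annotation also names 26 pseudogenes of HSPE1 and 17 of HSPD1, and how the authors assigned such reads is not given in the sources used here.

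YME1L1, the i-AAA protease of the inner membrane that faces the intermembrane space, rose with both compounds. Its values were 271 and 255 CPM with DMSO, 325 and 324 CPM with CCF642, and 325 and 341 CPM with CCF642-34. Treated and DMSO libraries did not overlap, while the compounds did. YME1L1 rose by 0.44 on the log2 scale (SE 0.042, limma adjusted p = 1.28e-12) with CCF642 and 0.43 (SE 0.042, limma adjusted p = 2.66e-12) with CCF642-34.

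AFG3L2, a subunit of the m-AAA protease on the matrix side of the same membrane, moved the other way. It fell from 108 CPM in each DMSO library to 80.0 and 81.6 CPM with CCF642 and to 81.3 and 85.7 CPM with CCF642-34. The treated libraries all lay below DMSO and those of the compounds overlapped. It had a log2 fold change of −0.28 with each compound (SE 0.056, limma adjusted p = 2.40e-05 with CCF642 and 3.28e-05 with CCF642-34). Its exons overlap those of TUBB6 over 19.6% of their bases, on the opposite strand.

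TRAP1, the mitochondrial HSP90 chaperone, also fell with both compounds. It was at 192 and 190.0 CPM with DMSO, 146 and 156 CPM with CCF642, and 153 and 154 CPM with CCF642-34. The treated libraries all lay below DMSO, and the compounds overlapped. Its fitted log2 change was −0.21 (SE 0.048, limma adjusted p = 0.000202) with CCF642 and −0.22 (SE 0.048, limma adjusted p = 9.81e-05) with CCF642-34. Of its exonic bases, 28.0% overlap DNASE1 on the opposite strand.

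CLPP and CLPX encode the peptidase and the unfoldase of the CLPXP complex. CLPP was at 119 and 122 CPM with DMSO, 103 and 107 CPM with CCF642, and 129 and 118 CPM with CCF642-34. It had no detected change with CCF642 (log2 fold change −0.059, 95% interval −0.17 to 0.048, limma adjusted p = 0.344) and a call at the edge of the threshold with CCF642-34 (0.12, limma adjusted p = 0.0428). That call was lost with library size alone (0.035), with DESeq2's size factors (limma adjusted p = 0.0542), with the DESeq2 Wald test (adjusted p = 0.101) and without DMSO replicate 1 (limma adjusted p = 0.217), DMSO replicate 2 (0.0952) or CCF642-34 replicate 1 (0.501). For both genes the scaled CCF642 libraries lay just under those of DMSO. CLPX was at 118 and 115 CPM with DMSO, 94.6 and 104 CPM with CCF642, and 104 and 105 CPM with CCF642-34. Its log2 fold changes were −0.093 (limma adjusted p = 0.136) and −0.064 (limma adjusted p = 0.323), and CLPX passed the test with CCF642 at −0.16 without CCF642 replicate 2 (limma adjusted p = 0.0133). With library size alone, CLPX was lower with CCF642 (−0.23) and CCF642-34 (−0.15), and CLPP was lower with CCF642 (−0.19).

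HTRA2, a serine protease of the intermembrane space that can also bind inhibitors of apoptosis, was called in no comparison. It was at 27.1 and 25.2 CPM with DMSO, 23.1 and 24.2 CPM with CCF642, and 26.0 and 23.9 CPM with CCF642-34. All groups overlapped after scaling. The log2 fold change was −0.010 with CCF642 (95% interval −0.19 to 0.17) and 0.022 with CCF642-34 (95% interval −0.16 to 0.20). Exons of AUP1 and LOXL3 overlap 46.8% of its exonic bases on the opposite strand, and no source used here says whether reads were counted by strand.

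In the GRCh38 annotation of GENCODE release 29, HSPD1, HSPE1 and HTRA2 lie on chromosome 2, LONP1 and CLPP on chromosome 19, HSPA9 on 5, YME1L1 on 10, CLPX on 15, TRAP1 on 16 and AFG3L2 on 18, all as protein-coding genes. Levels of different genes can be compared only per length, for which CPM was divided by the exonic length in that annotation. In DMSO, HSPD1 led with 649.7 ± 6.49 CPM per kb (SD, n = 2), followed by HSPA9 with 110.2 ± 0.286, CLPP with 98.4 ± 1.59, LONP1 with 82.6 ± 1.22 and TRAP1 with 64.9 ± 0.455 CPM per kb. YME1L1 (36.7 ± 1.59), AFG3L2 (33.2 ± 0.0601), CLPX (24.7 ± 0.480), HSPE1 (15.2 ± 0.622) and HTRA2 (11.04 ± 0.585 CPM per kb) followed. No neighbours in this order overlapped in their DMSO libraries. These SDs cover only the spread between libraries, and not errors from the overlapping genes and pseudogenes given above. With CCF642, HSPD1 reached 1033 ± 11.2 and LONP1 146 ± 3.57 CPM per kb, above CLPP at 86.0 ± 2.04 CPM per kb, and HSPE1 at 22.6 ± 2.87 overlapped CLPX at 21.2 ± 1.42 CPM per kb. With CCF642-34, HSPD1 was at 733 ± 27.1, HSPA9 at 207 ± 4.61 and LONP1 at 137 ± 5.76 CPM per kb.

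CCF642-34 was then set directly against CCF642 at the same dose and time, as the only pair of compounds. The folding chamber genes had the largest differences, and the proteases other than LONP1 and CLPP showed none that was detected. At an adjusted p under 0.05, 4 members were lower with CCF642-34 (HSPD1, HSPE1, HSPA9 and LONP1), 1 was higher (CLPP) and 5 were not called. Over all genes, 33.4% were called in this comparison, 15.9% higher and 17.4% lower, and 0.308% met the 2-fold criterion, as did none of the members. The median of the members was −0.0098, beside 0.0093 over all genes. With library size alone, 1 member was higher and 3 were lower, the median of the members was 0.0343, and 61.8% of all calls were higher in place of 47.8%.

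HSPE1 was lower with CCF642-34 by a log2 difference of −0.72 (95% interval −0.94 to −0.51, limma adjusted p = 5.35e-07). HSPD1 had a difference of −0.54 (95% interval −0.61 to −0.47, limma adjusted p = 7.07e-18). Both genes kept a call in the same direction in all 14 alternative fits, with HSPE1 between −0.84 and −0.60 and HSPD1 between −0.57 and −0.50.

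HSPA9 (−0.12, 95% interval −0.19 to −0.049, limma adjusted p = 0.00746) and LONP1 (−0.14, 95% interval −0.22 to −0.062, limma adjusted p = 0.00457) differed far less. The HSPA9 call was lost with library size alone (−0.077, limma adjusted p = 0.0857) and without CCF642-34 replicate 1 (−0.10, limma adjusted p = 0.110), and the LONP1 call without CCF642-34 replicate 2 (−0.095, limma adjusted p = 0.160). CLPP was higher with CCF642-34 by 0.18 (95% interval 0.076 to 0.29, limma adjusted p = 0.00620), a call lost without CCF642-34 replicate 1 (0.11, limma adjusted p = 0.207). The other 5 genes were TRAP1, CLPX, YME1L1, AFG3L2 and HTRA2, and their 95% intervals lay between −0.15 and 0.21. With 2 libraries per group, differences as large as each gene's own interval allows remain possible, and the compounds are not shown to act alike on these genes.

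**Figure D3:**
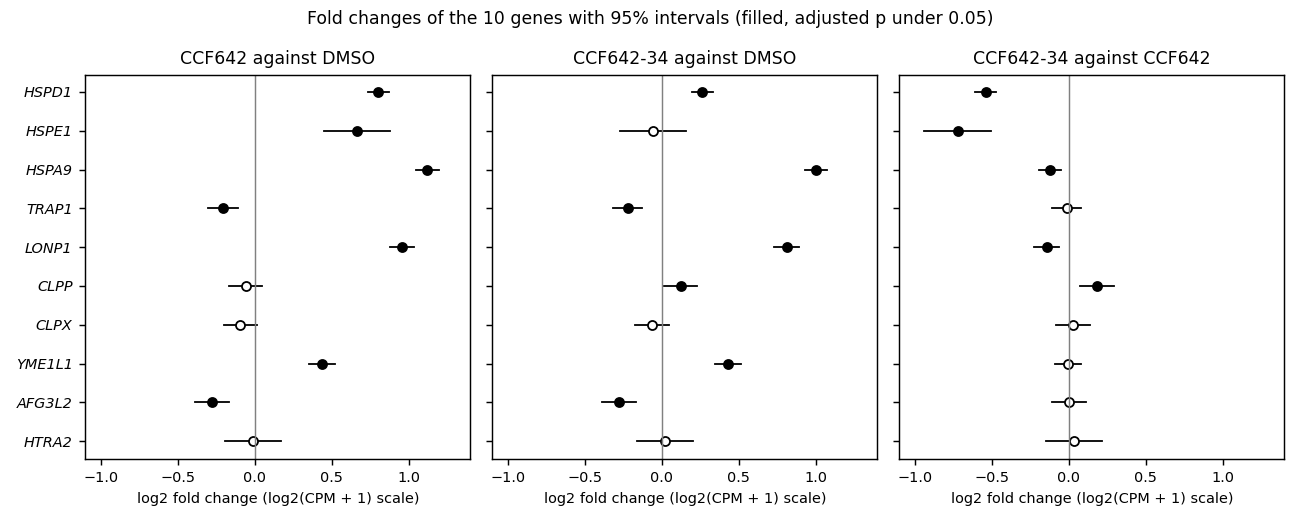
Log2 fold changes of the 10 genes in the 3 comparisons on the log2(CPM + 1) scale, with 95% intervals as lines; filled points have an adjusted p under 0.05. In the direct comparison HSPD1 (−0.54) and HSPE1 (−0.72) stand apart from the other members, which lie between −0.14 and 0.18.

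The members, chosen with earlier results of these data known, were also compared among themselves by their profiles. Distances were taken between log2 values centred over the 6 libraries, as a description without a test. The closest pair was TRAP1 and AFG3L2 (distance 0.103), followed by CLPX with HTRA2 (0.152), TRAP1 with CLPX (0.166) and CLPP with HTRA2 (0.183). Among the members, HSPA9 was closest to LONP1 (0.232) and HSPD1 closest to HSPE1 (0.395). Genes that change little lie close together by this measure. Of 8923 other genes with a mean log2 value of at least 3, the nearest to HSPA9 were STX5 (distance 0.0472), which encodes a Golgi syntaxin, RAP2B (0.0636), a small GTPase, and UBE2QL1 (0.0694). Nearest to AFG3L2, the member with the largest decrease with CCF642-34, were MRPL35 (0.0318), a mitochondrial ribosomal protein, GART (0.0433), an enzyme of purine synthesis, and NARS2 (0.0450), the mitochondrial asparaginyl-tRNA synthetase. All 6 libraries entered these distances.

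Of 11 listed matrix chaperones and co-chaperones, CCF642 libraries had 3 higher and 4 lower, and CCF642-34 libraries had 5 higher and 1 lower. These shares are near the 63.1% and 57.6% of all genes called. Under library size alone these were 2 and 5, and 3 and 2. TIMM44, which tethers mortalin to the import pore, had 106 and 101 CPM with DMSO, 209 and 189 CPM with CCF642, and 194 and 179 CPM with CCF642-34. Like HSPA9 itself, it rose with both compounds, by a log2 fold change of 1.07 (SE 0.051, n = 2) with CCF642 and 0.93 (SE 0.051) with CCF642-34.

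GRPEL2, a nucleotide exchange factor of mortalin, rose by 0.98 with CCF642 and 0.86 with CCF642-34. Its paralogue GRPEL1 was at 45.9 and 50.3 CPM with DMSO, 36.6 and 34.3 CPM with CCF642, and 44.2 and 45.1 CPM with CCF642-34. It was lower with CCF642 (−0.30, limma adjusted p = 0.000454) and not called with CCF642-34 (−0.017), and was named after its values were seen. PPIF, the matrix cyclophilin that regulates the permeability transition, fell with log2 fold changes of −0.35 with CCF642 and −0.59 with CCF642-34.

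Of 15 further mitochondrial proteases, peptidases and their scaffolds, CCF642 gave 2 increases and 6 decreases, and CCF642-34 gave 4 of each, shares no larger than the 63.1% and 57.6% of all genes. PMPCA, a subunit of the peptidase that removes import signals, fell with log2 fold changes of −0.43 and −0.47 in that order of compounds, and the peptidase gene NLN fell with log2 fold changes of −0.39 and −0.22. The rhomboid protease gene PARL rose with CCF642-34 (0.32) and had a log2 fold change of 0.068 with CCF642 (limma adjusted p = 0.334). IMMP1L, a subunit of the inner membrane peptidase, had 0.39 with CCF642-34 from 5.09 and 5.23 CPM with DMSO, a call lost with library size alone, with the DESeq2 Wald test and without any 1 of the 4 libraries. The NLN call with CCF642-34 was lost with the DESeq2 Wald test and without DMSO replicate 1 (−0.16, limma adjusted p = 0.272) or CCF642-34 replicate 1 (−0.15, limma adjusted p = 0.257).

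Of 20 genes of the TOM and TIM import complexes, CCF642 gave 3 increases and 8 decreases, and CCF642-34 gave 6 and 5. These 11 of 20 with each compound are no more than the share of all genes called, 63.1% and 57.6%. TIMM21, a subunit of the presequence translocase, fell most, with log2 fold changes of −0.86 with CCF642 and −0.74 with CCF642-34, from 46.98 and 45.5 CPM with DMSO. TIMM8A, a small chaperone of the intermembrane space, fell with log2 fold changes of −0.64 and −0.56. TIMM9, of the same class, rose with CCF642-34 (0.43). With CCF642 it had 0.23 (limma adjusted p = 0.0484), a call lost with library size alone and the DESeq2 Wald test, among others. TIMM17B, a channel subunit, rose by 0.34 with CCF642-34, a call lost without CCF642-34 replicate 1 (0.20). With CCF642 it had 0.145 (limma adjusted p = 0.135). Neither gene was called between the compounds (limma adjusted p = 0.149 for TIMM9 and 0.0688 for TIMM17B). In the direct comparison 7 import genes were called higher in the CCF642-34 libraries and 1 was called lower, beside 15.9% and 17.4% of all genes. Under library size alone the import genes showed 2 increases and 13 decreases for CCF642, and 3 and 8 for CCF642-34. The further proteases then showed 9 decreases for CCF642, and 1 increase and 6 decreases for CCF642-34.

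The factors that are known to act upstream of these genes were read at the mRNA level only. ATF4 was at 411 and 428 CPM with DMSO, 1101 and 1060.0 CPM with CCF642, and 1125 and 1103 CPM with CCF642-34, with log2 fold changes of 1.496 and 1.497. Between the compounds it differed by 0.00068 (95% interval −0.073 to 0.075). ATF5, a factor linked to the mammalian mitochondrial response, was at 20.0 and 20.8 CPM with DMSO, 20.9 and 20.6 CPM with CCF642, and 15.6 and 16.4 CPM with CCF642-34. It was lower with CCF642-34 than with CCF642 (−0.40, limma adjusted p = 0.00135), and its call against DMSO (−0.25, limma adjusted p = 0.0298) was lost with the DESeq2 Wald test and without any 1 of the 4 libraries compared.

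DDIT3, the gene of CHOP, rose by 3.42 with CCF642 and 3.33 with CCF642-34, and CEBPB, a partner of CHOP, by 3.48 and 3.22. HSF1 rose by 0.40 with CCF642 and 0.29 with CCF642-34 and was not called between the compounds (−0.11, 95% interval −0.20 to −0.020, limma adjusted p = 0.0533). That call passed with DESeq2's size factors, edgeR, limma-voom and the replicate block, and without CCF642 replicate 1 (−0.16, limma adjusted p = 0.00639) or CCF642-34 replicate 1 (−0.16, limma adjusted p = 0.0440). TFAM, which packages mitochondrial DNA, fell with log2 fold changes of −0.54 and −0.44, and the nuclear receptor gene ESRRA fell with log2 fold changes of −0.44 and −0.39. PPARGC1A, of the same list and named after its values were seen, rose by 1.33 and 1.10. In all, 5 of the 12 listed regulators rose and 4 fell with each compound, where 63.1% and 57.6% of all genes were called in either direction.

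Of 12 listed outputs of mitochondrial stress and one-carbon enzymes, CCF642 gave 8 increases and 3 decreases and CCF642-34 gave 8 and 2, where 31.8% and 29.7% of all genes were higher. The medians were 1.05 and 1.10. The study reports that target genes associated with ATF4 rose in treated cells and ties this to endoplasmic reticulum stress. Whether the increases in the present list came from mitochondrial or endoplasmic reticulum stress was not tested. PCK2, the mitochondrial phosphoenolpyruvate carboxykinase, rose by 2.21 and 2.37. GDF15, a secreted stress cytokine, was at 0 and 0.0467 CPM with DMSO, 2.38 and 1.86 CPM with CCF642, and 3.44 and 2.95 CPM with CCF642-34, and no fold is given because DMSO held a single read. Any fold of it above its fitted value leaves both medians as they are. SOD2, the matrix superoxide dismutase, fell with log2 fold changes of −0.75 and −0.63, and LMNB2, a nuclear lamin, of −0.37 and −0.42. Between the compounds, 3 of these genes were higher with CCF642-34 and 9 were not called, and the median was 0.10.

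The cytosolic targets of HSF1 were compared because HSPD1 and HSPE1 are known to be induced by heat shock. Of 14 listed genes, CCF642 gave 13 increases with 1 gene not called, and CCF642-34 gave 12 increases and 1 decrease, where again 31.8% and 29.7% of all genes were higher. The medians were 0.86 and 0.27. Every 1 of the 14 was called lower in the CCF642-34 libraries than in those of CCF642 (median −0.44), where 17.4% of all genes were, and 13 were so called under library size alone. HSPD1 and HSPE1 lay within the range of these 14 genes in the direct comparison (−1.18 to −0.15). HSPA9 (−0.12) and LONP1 (−0.14) lay just above its upper edge, each within less than its own SE (0.036 and 0.040) from it.

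BAG3, a co-chaperone that links HSP70 to autophagy, was at 131 and 133 CPM with DMSO, 467 and 468 CPM with CCF642, and 283 and 282 CPM with CCF642-34. It rose by 1.95 and 1.18, and HSPB1, a small heat shock protein, by 1.49 and 1.06. These 2 genes rose most of the list with CCF642-34. The gene not called with CCF642-34 was HSPA1B (−0.022, limma adjusted p = 0.714), which rose by 1.16 with CCF642. FKBP4, an HSP90 co-chaperone, fell with CCF642-34 (−0.16), a call lost without DMSO replicate 2 (−0.12, limma adjusted p = 0.0979). With CCF642 its log2 fold change was 0.098 (limma adjusted p = 0.0507). No list was tested as a set, and the resemblance of HSPD1 and HSPE1 to the cytosolic genes is a description.

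**Figure D4:**
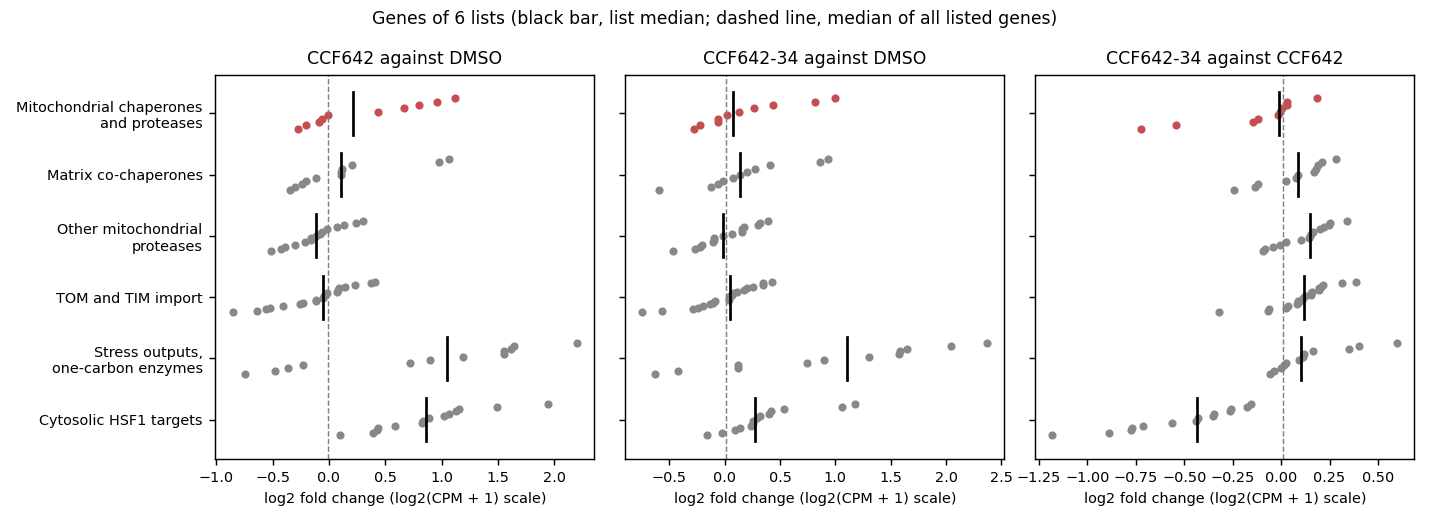
Log2 fold changes of the genes of 6 lists in the 3 comparisons on the log2(CPM + 1) scale; points are genes, black bars list medians and the dashed line the median of all listed genes. In the direct comparison all 14 cytosolic chaperone genes lie below 0 (median −0.44), while the medians of the other lists plotted lie between −0.0098 and 0.15; the regulators (median −0.069) are not plotted.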

How the data were processed

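MM1.S libraries were made by the authors from oligo(dT)-enriched mRNA with random hexamers. The submitters' processing notes name STAR, edgeR 3.24.3, limma 3.38.3 and the build hg19; the counting tool, annotation and strand setting are not given in the sources used here. The deposited values are CPM, the unit being read from the values, which sum to between 998968 and 999077 per library. Taking 1 read as the spacing of low values, all values (100%) were whole reads within 0.1 reads, and reads and library totals were inferred so. In the CCF642-34 libraries the lowest values above 0 (0.176 and 0.108 CPM) are several reads, so 1 read is not itself seen there, and their totals and reads rest on the spacing. Reads were used only for alternatives. A table of the whole series held the same values and was not used.

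CPM were divided by TMM factors (0.957 to 1.05, edgeR 4.0.16) and tested as log2(CPM + 1) with limma 3.58.1 in R 4.3.3, with the variance following the mean, over all 11048 genes and 3 groups in 1 fit (3 residual and 42.9 prior degrees of freedom; two-sided; Benjamini-Hochberg adjustment over all genes). The fit was also run on simulated data, but no outcome of that run is given here, so nothing is concluded from it. No gene was filtered out. Groups came from the sample titles. SDs are over 2 deposited CPM values, and statements on overlap use TMM-scaled CPM. Alternatives were other scalings, a pseudocount of 0.1 or 4, genes with a mean CPM of 5 or more, edgeR's quasi-likelihood test, DESeq2 1.42.0, limma-voom, a replicate block, fits of 2 groups and fits without each library. In the last, a lone library is assumed to vary like the other groups. With 2 libraries per group no outlier test was run.

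The members and gene lists were chosen with earlier results of these data known. Named beside the members were, from each list, the 2 genes that rose most and the 2 that fell most in CCF642-34 libraries (adjusted p under 0.05), ATF4, ATF5, DDIT3, HSF1, and the 3 genes nearest to the members with the largest increase and decrease. Of the cell marker lists only SDC1, IRF4, COL1A1 and HBB are given. PAM16, ATP23, AFG1L, MAIP1, TOMM70, TIMM29, DELE1, FGF21 and HSPA1A were not listed.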

Additional observations from a re-analysis of the deposited data

How the results depend on the processing

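Of the member calls, those of HSPD1, HSPE1, HSPA9, LONP1, YME1L1, TRAP1 and AFG3L2 with CCF642 kept their direction and passed in all 14 alternative fits, and so did those of HSPD1, HSPA9, LONP1, YME1L1, TRAP1 and AFG3L2 with CCF642-34 and of HSPD1 and HSPE1 between the compounds. HSPA9 with CCF642-34 lay at the edge of the 2-fold criterion, at 0.91 to 1.02 over those fits. By that criterion the number of members called was 1 with CCF642, 0 with CCF642-34 and 0 between the compounds, in place of 7, 7 and 5. Without 1 library at a time the numbers ranged from 7 to 8, from 6 to 7 and from 3 to 5, the lowest of the last without CCF642-34 replicate 1. The replicate numbers did not pair the libraries (correlations of deviations −0.047, −0.077 and 0.11), and with a replicate block 7, 7 and 5 members were called; every call made or missed among the 10 members was the same with the block.

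Directions that turned belonged to log2 fold changes that had not passed the test. With library size alone, FKBP4 was −0.036 and PARL −0.065 with CCF642, HTRA2 −0.064 with CCF642-34, and TRAP1 0.030 and YME1L1 0.039 between the compounds. DESeq2's size factors and Wald test gave −0.0059 and −0.0059 for AFG3L2 and −0.0076 and −0.0076 for ATF4 between the compounds. Without 1 library at a time, HTRA2 ran from −0.061 to 0.041 with CCF642, and with CCF642-34 HSPE1 ran from −0.14 to 0.023 and HTRA2 from −0.040 to 0.085. Between the compounds the ranges were −0.067 to 0.039 for TRAP1, −0.043 to 0.10 for CLPX, −0.036 to 0.027 for YME1L1, −0.030 to 0.037 for AFG3L2, −0.030 to 0.096 for HTRA2, −0.022 to 0.024 for ATF4, −0.068 to 0.17 for ESRRA, −0.0879 to 0.0017 for PMPCA, −0.026 to 0.25 for TIMM21 and −0.016 to 0.18 for TIMM8A. The cause was not tested. Among the 10 members, depth limits HSPE1 and HTRA2 most, with 326 to 741 reads per library; TIMM8A (179 to 340 reads), IMMP1L (112 to 189) and GDF15 (0 to 98) had fewer.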
